A study of Homo sapiens with 4 samples.

Results

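A set of 86 features annotated as long non-coding RNA (lncRNA) had 6 or more reads in each control library and 3 or fewer in each p53 shRNA library of small extracellular vesicles. A feature is one annotated RNA with its genomic intervals. The members were chosen by these counts, with a limit of under 100 reads over the 4 libraries, from 155642 features, of which 147844 were typed lncRNA and 45013 of those had a read. A member needs at least 12 reads, and 7701 lncRNA features had 12 to 99 reads in all, so the members were 1.12% of them and 0.191% of those with a read. Because the counts themselves chose the members, their levels are given as a description, with no test.

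The RNA came from vesicles of the established human colon cancer line HT29. In 2 libraries, called control, the cells held a non-targeting shRNA, and in the other 2 they held an shRNA against p53. All cells were at passages 5 to 15, and total vesicle RNA was made into small RNA libraries with inserts of 18 to 40 nt. Separate cultures are not stated for replicates, nor whether each cell line was a pool or a clone. Any p-value therefore measures the spread between the 4 libraries alone, and that spread may be technical.

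Small extracellular vesicles are membrane-bound particles that cells release, and their RNA is rich in fragments of cellular transcripts. A lncRNA is a transcript with no known protein product. Many are transcribed from the opposite strand of a protein-coding gene, from the introns of one or from the space between genes. Unmutated p53 is a transcription factor that activates protein-coding and non-coding genes after DNA damage and other stress, and some lncRNAs take part in its response. The sample labels used here give no p53 genotype for the HT29 cells. An insert of this length cannot cover a whole lncRNA, so each count is of fragments.

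Sequences are shown for 3 members, chosen because few bases or no read in the p53 shRNA libraries define them. Capitals mark bases that lie in no other annotated feature, so that a read placed there overlaps the member alone, although the same sequence may occur at other loci. The sequences are those of GENCODE 29 transcripts on GRCh38, 5′ to 3′ on the strand of the feature. AC016590.1, the member with the most control reads, had 130 such bases in all, shown at chr19:37271369-37271518 on the minus strand.
AC016590.1: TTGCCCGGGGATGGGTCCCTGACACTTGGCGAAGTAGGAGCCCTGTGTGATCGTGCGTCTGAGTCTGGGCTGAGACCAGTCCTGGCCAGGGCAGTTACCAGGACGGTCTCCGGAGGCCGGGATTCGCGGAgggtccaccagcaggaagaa
TRAM2-AS1 had the fewest bases of its own, 99, of which 90 had sequence, at chr6:52576796-52576885 on the plus strand.
TRAM2-AS1: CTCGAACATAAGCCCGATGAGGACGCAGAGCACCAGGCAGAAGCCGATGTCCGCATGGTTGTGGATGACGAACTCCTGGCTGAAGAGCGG
AC074050.2 had no read in either p53 shRNA library. A stretch of 279 of its 538 own bases is shown, at chr16:31699676-31699954 on the minus strand.
AC074050.2: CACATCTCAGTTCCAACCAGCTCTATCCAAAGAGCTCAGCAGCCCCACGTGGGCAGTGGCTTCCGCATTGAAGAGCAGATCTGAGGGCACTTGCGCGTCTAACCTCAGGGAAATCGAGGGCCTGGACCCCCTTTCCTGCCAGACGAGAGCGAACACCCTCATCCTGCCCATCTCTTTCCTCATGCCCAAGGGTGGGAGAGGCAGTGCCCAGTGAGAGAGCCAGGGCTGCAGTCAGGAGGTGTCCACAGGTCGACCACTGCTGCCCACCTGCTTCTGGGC
The share of G and C in the own bases shown was 64.6% for AC016590.1, 58.9% for TRAM2-AS1 and 60.6% for AC074050.2. No background share was computed.

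The libraries differed in depth. The total was 1099694 counts for control replicate 1, 938754 for control replicate 2, 2611032 for p53 shRNA replicate 1 and 1940942 for p53 shRNA replicate 2. The members were thus high in the shallower group. Control replicate 1 stood apart in scaling, with a TMM factor of 0.637 against 1.12 to 1.25 in the others, which raises its CPM, the count after scaling all libraries to one size. Reads on lncRNA features over exons of 11 colon epithelium markers came to 54.6 and 66.0 CPM by library totals in the controls, against 28.3 and 34.5 under p53 shRNA, without overlap. MUC2, a secreted mucin, carried this difference, with 22 and 40 reads against 6 and 11. Without it the values were 34.6 and 23.4 against 26.0 and 28.9, and the groups overlapped. Of these markers 7 had a read, and EPCAM, VIL1, CDX2 and CDH17 had none. For 8 fibroblast markers the values were 24.6 and 45.8 against 46.3 and 30.9, with 5 markers read and COL3A1, DCN and LUM at 0. For 8 blood markers there were at most 2 reads in a library, all on CD3E. The part of these differences in the members' counts was not tested.

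As a group, the members held 963 and 814 counts in the controls, against 102 and 135 under p53 shRNA. These were 0.0876% of all counts in control replicate 1 (95% Wilson interval 0.0822 to 0.0933) and 0.0867% in control replicate 2 (0.0810 to 0.0929). With p53 shRNA they were 0.00391% (0.00322 to 0.00474) in replicate 1 and 0.00696% (0.00588 to 0.00823) in replicate 2. The intervals cover counting error only. Because the same counts chose the members, they lack their nominal 95% coverage and do not measure the difference between the groups. The 2 controls had nearly the same share, and both lay above both p53 shRNA libraries, as the rule requires. The median member had 9.5 and 8 reads in the controls, with ranges of 6 to 31 and 6 to 27, and 1 and 2 reads with p53 shRNA. The groups did not overlap for any member, which the rule fixed. Among the 7701 lncRNA features with 12 to 99 reads in all, 3.86% had both controls above both p53 shRNA libraries in counts and 17.3% in CPM.

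The same rule with the groups exchanged found 1290 lncRNA features, 16.8% of the 7701, against the 86 members. Counts as deposited favour the deeper libraries in such a rule. With counts scaled down to the shallowest library by library totals, 130 features passed in the members' direction and 171 in the other, and 63 of the 86 members were among the 130. With scaling by TMM, 127 passed in the members' direction and 35 in the other, and 39 of the 86 members were among the 127. The ratio of the directions therefore turned with the scaling, from 86 against 1290 to 127 against 35. Scaling by TMM lowered the counts of control replicate 2 as well, since control replicate 1 had the smallest effective library size, and the 47 members with 8 or fewer reads there then fell under the limit.

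**Figure D1:**
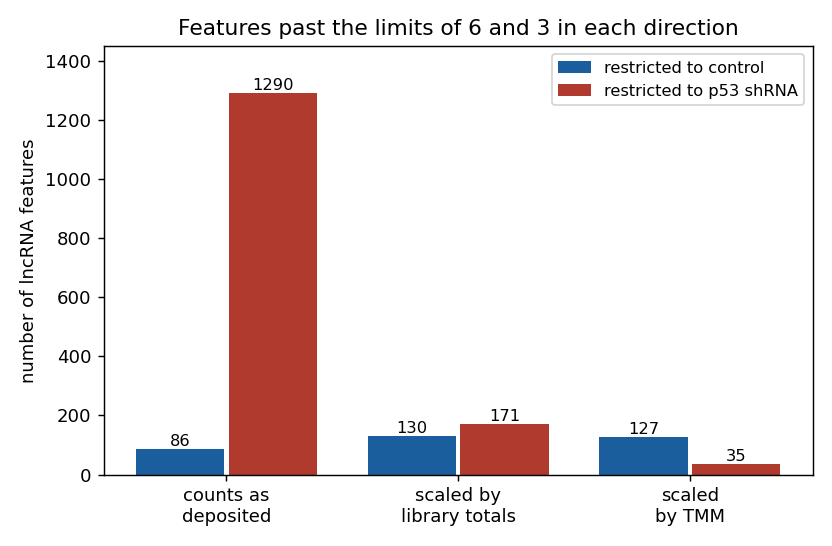
Number of lncRNA features (y axis) with 6 or more reads in each library of one group and 3 or fewer in each library of the other, for counts as deposited and for counts scaled to the shallowest library by totals or by TMM. Blue bars are features restricted to control (86, 130 and 127) and red bars are features restricted to p53 shRNA (1290, 171 and 35).

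On the log2 CPM scale with a prior count of 2, the median change of the members, p53 shRNA minus control, was -2.89, with a range of -4.07 to -2.08. The median over the 7701 lncRNA features with 12 to 99 reads was 0.24. With library totals in place of TMM the medians were -2.54 and 0.55, and the median over all features tested moved from 0.17 to 0.57. As a ratio of summed counts over summed effective library sizes, the controls exceeded the p53 shRNA libraries by a median of 20.4 times over the members, with the members that had no read in the p53 shRNA libraries set at a floor of 3 counts for the group. The lowest ratio was 7.91. All of these sizes were set in part by the limits of the rule, and a limit of 3 reads in a deep library is a lower level than 3 reads in a shallow one.

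**Figure D2:**
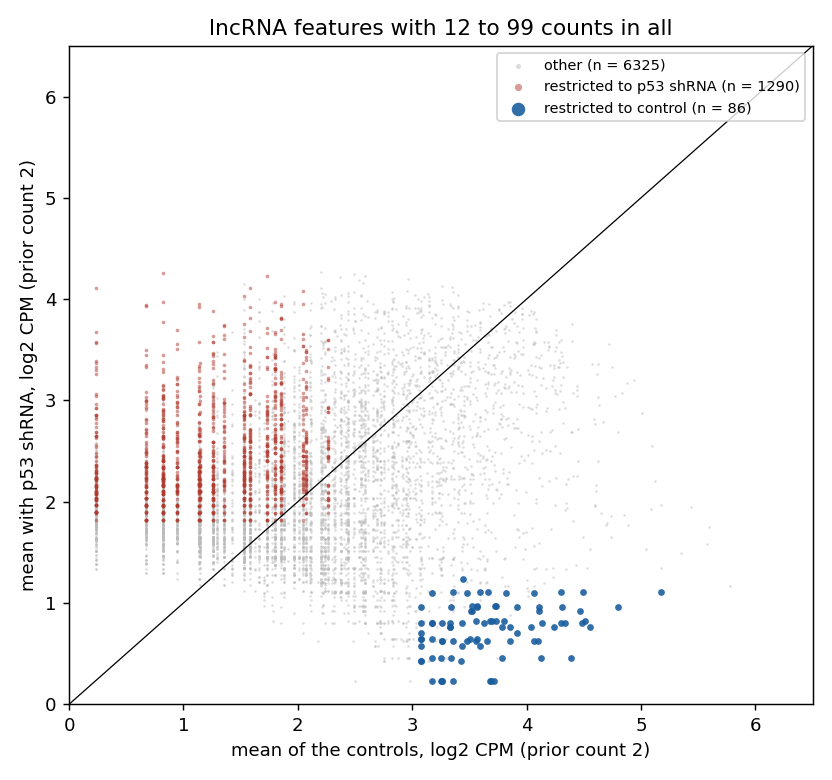
Mean level in the 2 p53 shRNA libraries (y axis) against that in the 2 control libraries (x axis), both in log2 CPM with a prior count of 2, for each of the 7701 lncRNA features with 12 to 99 reads. The 86 members (blue) lie between 3.08 and 5.18 in the controls and between 0.23 and 1.23 with p53 shRNA, and 24 of the 1290 features restricted to p53 shRNA by counts (red) lie below the diagonal, where levels are equal.

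Many members stood at the edge of the rule. The lowest control count was exactly 6 in 31 members, the highest p53 shRNA count was exactly 3 in 31, and both held in 9. Just outside, 33 lncRNA features had a lowest control count of 5 with p53 shRNA counts within the limit, and 22 had a highest p53 shRNA count of 4 with control counts within the limit. Well inside, 23 members had 10 or more reads in each control, and 22 had at most 1 read in each p53 shRNA library. No lncRNA feature that met both count limits had 100 or more reads in all, so the limit on the sum removed none, and the members' sums ran from 13 to 63.

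The controls differed from each other over the members. Control replicate 1 was above control replicate 2 in 52 members (60.5%) by counts and in 76 (88.4%) by CPM, where its small scaling factor raised it. Over the 7701 features the share by CPM was 58.2%. Of the p53 shRNA libraries, the deeper replicate 1 had 0 reads on 30 members and replicate 2 on 16. Leaving out each library in turn, the median log2 change of the members ran from -3.34 to -2.55. The limits of the rule, with the low group the deeper one, fix the sign of each change, so the sign says nothing about stability.

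In edgeR's quasi-likelihood test across all features, 51 of the 86 members passed the filter on low counts, which they did through their control counts. None of them was called at an adjusted p of 0.05, and neither was any of the 2780 features tested (0% called lower). All 51 had an unadjusted p under 0.05, and 7.81% of the features tested were lower at that limit. The rule used this contrast, so that count says nothing more about the members. The smallest adjusted p in edgeR's test was 0.122. The DESeq2 Wald test called 36 of 2241 features lower (1.61%), of which 17 were members. With the replicate number as a block, edgeR called 91 of 2780 features lower (3.27%), of which 29 were members, but the labels do not say that the numbers pair the libraries. The counts that chose the members also entered these fits, so nothing is read from the members' part of the calls.

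By position, the members were scattered. They lay on 19 of the 22 chromosomes of the table, with 10 on chromosome 1, 8 each on chromosomes 15 and 20, and none on 13, 14 or 21. Of the 7701 features, 670 lay on chromosome 1, 307 on 15 and 228 on 20. A further 220, 257 and 112 of the 7701 lay on 13, 14 and 21. The nearest pair lay 321786 bases apart, and the 64 members placed in a GENCODE gene lay in 64 different genes. A small RNA gene lay inside the span of 2 members (2.33%), against 6.04% of the 7701 features. The members' counts were therefore not those of one locus or of one host gene.

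Most members were placed in or over a gene. Exons of a gene on the same strand covered 50% or more of 41 members (47.7%), against 48.9% of the 7701 features. These host genes were protein-coding for 18 members (20.9% against 22.9%), pseudogenes for 13 (15.1% against 8.62%) and long non-coding for 10 (11.6% against 15.1%). Another 10 members lay mainly outside exons of a gene on the same strand (11.6% against 15.0%), and 12 lay in a gene of the opposite strand outside its exons (14% against 9.62%). A single member lay over exons of the opposite strand, 7 lay partly in a gene, and 15 lay in no gene (17.4% against 14.4%). Many features typed lncRNA thus lay on exons of coding genes, where a fragment of the messenger RNA would be counted in the same way. In bulk vesicle RNA, fewer vesicles with a fragment and fewer fragments per vesicle cannot be told apart.

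The members were shorter than the lncRNA features with 12 to 99 reads in all. Those features were not matched on count to the members, whose sums ran from 13 to 63. The members' median length was 1035.5 bases, against 1801 over the 7701 features and 1761.5 over the 1290 features of the exchanged rule. Their median number of own bases was 908.5 against 1383 and 1308.5. Over all 45013 lncRNA features with a read, both medians were below those of the members, at 900 and 647. The share of members with all bases their own was 53.5% against 51.5% of the 7701, and the share with a single interval 30.2% against 32.6%. On the plus strand lay 44.2% of members and 40.6% of the 7701. LNCipedia, a collection of human lncRNA, was a source of 82 members (95.3% against 89.7%). The medians and shares are descriptions over features, which are not replicates.

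Among members in long non-coding genes, AC016590.1 (RNAcentral URS000043FE22) lay at 37266070 to 37271518 on chromosome 19, on exons of a lncRNA gene of the same strand. It had 31 and 27 reads in the controls, against 2 and 3 under p53 shRNA. In CPM these were 36.2 ± 13.4 (SD, n = 2) and 1.0 ± 0.404 (SD, n = 2), a ratio of 35.3 that the choice of members sets in part. Both controls lay far above both p53 shRNA libraries. Most of its own sequence also occurs elsewhere: of 113 runs of 18 bases, 102 (90.3%) occurred in transcripts of 5 other genes. AC012617.1, a lncRNA gene also on chromosome 19, held 95 of them, and the FGF7P3 pseudogene on chromosome 9 held 53. Features at these genes had few reads. They were 0, 0, 1 and 0 at AC012617.1, and 0, 0, 3 and 1 at a feature in FGF7P3. Another feature, over FGF7P3, AL772307.1 and AL773545.3, had 0, 1, 2 and 4, and the feature at AL591438.2 had 4, 4, 0 and 0. These counts are over whole features, not the shared bases, and are too few to compare the groups at the copies. Reads from such copies could be counted at either place, so the source of the AC016590.1 reads is uncertain.

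TRAM2-AS1, a lncRNA transcribed from the strand opposite to TRAM2, had 12 and 10 reads in the controls, against 0 and 2 under p53 shRNA. TRAM2 encodes a protein associated with the translocation channel of the endoplasmic reticulum. None of the 73 runs of 18 bases in the own sequence of TRAM2-AS1 occurred in transcripts of genes at another locus. TRAM2, which the feature overlaps, was left out of that comparison. No source says that the counting used strand, so reads of TRAM2 transcripts could be counted at the feature. AC074050.2 had 8 and 6 reads in the controls and none with p53 shRNA, and 3.3% of its 487 runs occurred elsewhere. AZIN1-AS1, antisense to the gene of antizyme inhibitor, which acts in polyamine metabolism, had 7 and 6 reads in the controls and none with p53 shRNA. Its member is a single interval at 102963846 to 102964464 on chromosome 8, within the gene but mainly outside its exons. AC074050.2 and AZIN1-AS1 stood at the limit of 6 in control replicate 2.

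Among members on exons of protein-coding genes, the ATG9B feature had the most control reads. ATG9B encodes a membrane protein that moves lipids during the formation of autophagosomes. The feature, at 151019837 to 151024499 on chromosome 7, had 16 and 20 reads in the controls, against 1 and 2 under p53 shRNA, or 21.7 ± 2.68 against 0.607 ± 0.354 CPM (SD, n = 2 each). Of its 494 runs of 18 bases, 24.5% occurred in transcripts of 7873 other genes, so some of its reads may come from elsewhere. The SLC6A13 feature, in the gene of a GABA transporter, had 19 and 13 reads against 2 and 1. The RNF130 feature, in the gene of a RING-type ubiquitin ligase, had 18 and 13 against 2 and 1. Both controls were above both p53 shRNA libraries by more than 10 reads in each of these 3. The SPOCK1 feature, in the gene of the proteoglycan testican-1, had 13 and 18 reads against 2 and 3. Its controls agreed closely in CPM, at 18.5 ± 0.952, while those of the RNF130 feature were 19.7 ± 9.67 (SD, n = 2 each).

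Of the members with no read in either p53 shRNA library, 2 lay on exons of coding genes. The STPG2 feature, in the gene of a sperm-tail protein, spans 97235644 to 97893203 on chromosome 4 in 5 intervals and had 7 and 14 reads in the controls. With the p53 shRNA group set at a floor of 3 counts, it was 21.3-fold higher in the controls. That ratio takes the control reads as exact, so it is not a lower limit. The NCAPD3 feature, in the gene of a condensin II subunit, had 8 and 7 reads in the controls, a ratio of 15.2 against the same floor. It is 352 bases long with 261 of its own, none of whose runs of 18 bases occurred in transcripts of genes that do not overlap it.

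For members opposite to a coding gene, the strand of the reads is uncertain, since no source says that the counting used strand, and without it reads of either strand cannot be told apart. The feature over exons of USP47, the gene of a deubiquitinating enzyme, is annotated on the opposite strand at 11839466 to 11841892 on chromosome 11. It had 22 and 14 reads in the controls, against 2 and 3 under p53 shRNA. The feature opposite to CDH16, the gene of a cadherin of kidney epithelium, is a single interval of 330 bases at 66918078 to 66918407 on chromosome 16. It had 18 and 17 reads against 2 and 1, or 21.7 ± 6.87 against 0.572 ± 0.202 CPM (SD, n = 2 each). Its control counts were among the most even of the members named.

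Pseudogenes gave a further 3 of the members named. The LRRC34P1 feature, at 22573425 to 22575105 on chromosome 12, had 23 and 21 reads in the controls, against 1 and 3 under p53 shRNA, the second highest control sum. LRRC34P1 is a pseudogene of a leucine-rich repeat gene, and 12.4% of its 864 runs of 18 bases occurred in other genes. The AC064862.4 feature had 15 and 6 reads in the controls and none with p53 shRNA, a ratio of 21.3 against the floor of 3 counts. The HDAC1P2 feature, on a pseudogene of the histone deacetylase HDAC1 that lies inside MARK1, had 8 and 6 reads and none with p53 shRNA. For AC064862.4, 40.1% of runs occurred elsewhere, in 1596 other genes. For HDAC1P2, 20.9% did, in 16 other genes. Reads of these pseudogenes may thus come from other places.

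The other 6 members named had no assigned gene. The feature at 59521282 to 59534735 on chromosome 20 had 28 and 12 reads in the controls, against 0 and 3 under p53 shRNA. The feature at 10521738 to 10526889 on chromosome 5, partly over LINC02213, had 26 and 10 against 0 and 1. In both, control replicate 1 had more than double the reads of control replicate 2. The feature at 32976699 to 33002637 on chromosome 20, partly over SUN5, had 20 and 15 reads against 3 and 1. The feature at 62798855 to 62801338 on chromosome 9 had 14 and 17 against 1 and 3. The feature at 48455298 to 48459757 on chromosome 12 had 13 and 7 reads in the controls and none with p53 shRNA. The feature at 1751071 to 1755759 on chromosome 8 had 6 and 8 and none with p53 shRNA. The controls were thus less even in the first pair than in the others on chromosomes 8, 9 and 20.

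**Figure D3:**
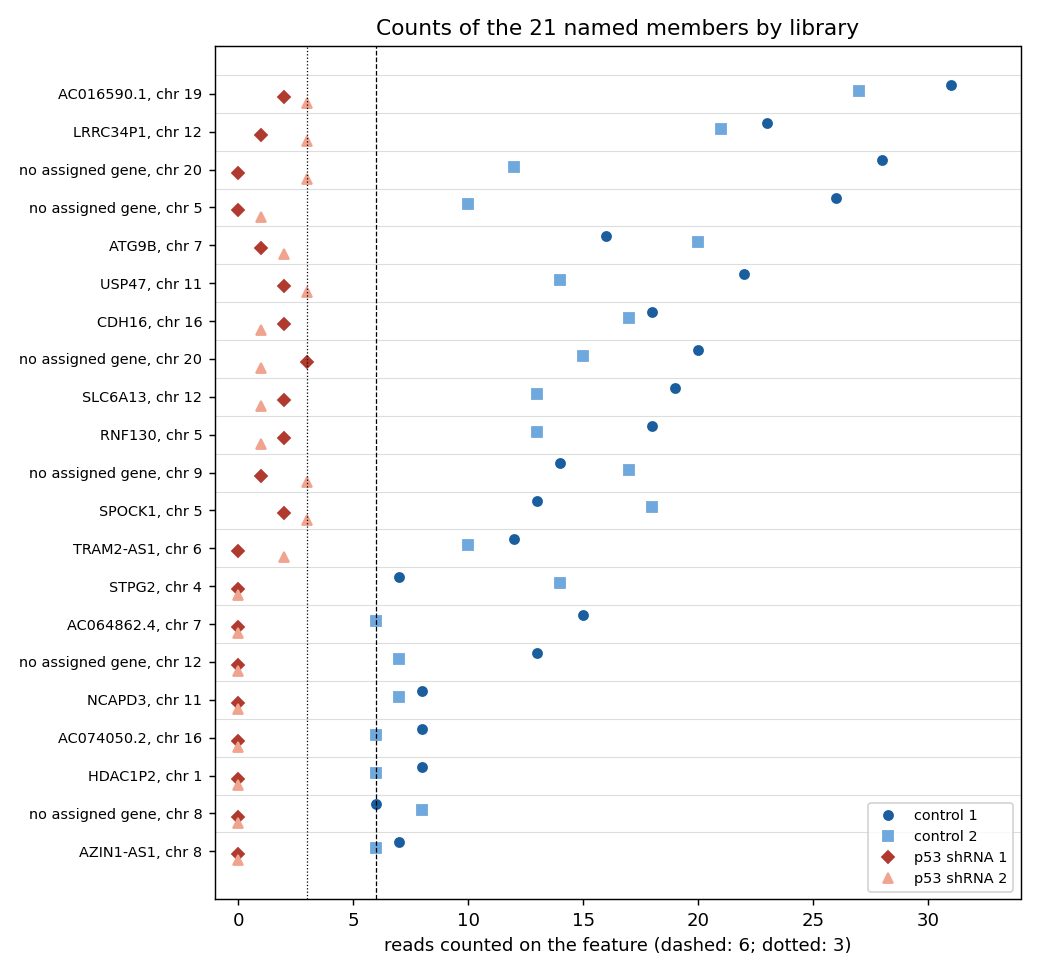
Reads counted (x axis) on each of the 21 members named (rows, by host gene or chromosome) in control replicates 1 and 2 (blue) and p53 shRNA replicates 1 and 2 (red). The dashed line at 6 and the dotted line at 3 are the limits of the rule, and the control counts run from 6 to 31.

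The remaining 65 members had at most 21 reads in control replicate 1 and 18 in control replicate 2. Their genes included TJP1, the tight junction protein ZO-1, LBR, the lamin B receptor, CPEB1, a regulator of cytoplasmic polyadenylation, and SOX2-OT, the lncRNA that overlaps SOX2. Their counts were 8, 9, 3 and 1 for TJP1, 7, 6, 2 and 1 for LBR, 6, 6, 1 and 1 for CPEB1, and 14, 7, 2 and 2 for SOX2-OT. These 4 were chosen for mention after their values were seen. AL136528.1, an antisense gene within TP73, which encodes a relative of p53, had 6, 6, 3 and 0 and met both limits exactly. It too was chosen after its values were seen.

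Other lncRNA features of the same genes were not used by the rule. Of the 64 members in a gene, 41 had another lncRNA feature with a read that overlapped that gene, and 20 had 12 or more reads on such features in all. For these 20 the median log2 change of the other features was -0.13, with a range of -1.23 to 0.99. The median over the 2173 lncRNA features with 12 to 99 reads for which this could be computed was 0.02. Controls were above p53 shRNA libraries without overlap in CPM for 7 of the 20 (35.0%, against 20.2% of the 2173), and the p53 shRNA libraries were above the controls for 2 (10%, against 17.8%).

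Single genes showed both patterns. The other features of AZIN1-AS1 had 25 and 43 reads in the controls, against 61 and 28 under p53 shRNA, a log2 change of -1.23 in CPM. Those of MNT, the gene of a repressor that binds MAX, had 7 and 2 against 44 and 17, a change of 0.99, while the MNT member had 8, 7, 0 and 2. Those of CDYL, the gene of a chromatin corepressor, had 39 and 107 against 117 and 124, and the CDYL member had 7, 6, 3 and 2. So the members of MNT and AZIN1-AS1 were low with p53 shRNA beside features of the same gene that had more reads there than the members. The other features of TRAM2-AS1 followed the replicate number instead, with 171 and 7 reads in the controls, against 689 and 31 under p53 shRNA.

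**Figure D4:**
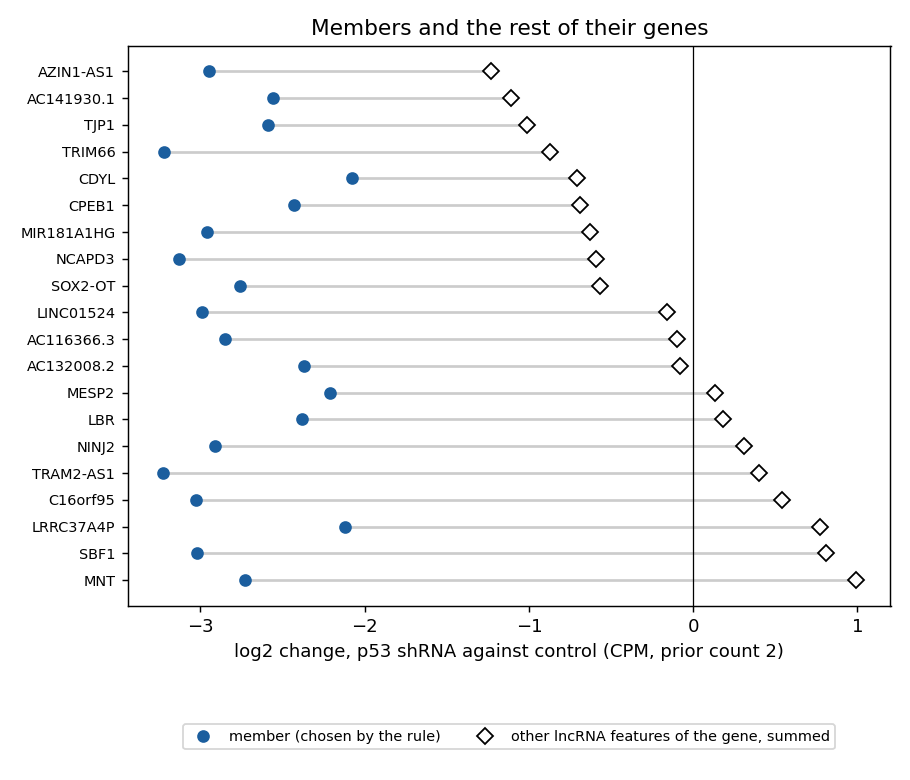
Log2 change in CPM, p53 shRNA against control (x axis, prior count 2), of the member (filled) and of the other lncRNA features of the same gene summed (open), for the 20 genes (rows) with 12 or more reads on the others. The other features lie between -1.23 and 0.99, and in each row the member, chosen by the rule, lies to the left.

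A family of pseudogenes appeared more than once among the members. CICP pseudogenes are similar copies related to the gene of the transcriptional repressor CIC. The family was singled out after its values were seen. Of 27 lncRNA features placed in a CICP gene, 21 had a read, and 19 of these lay on exons of the same strand. Of the 19, 4 were members, and none of the 21 was among the 1290 features of the exchanged rule. CICP7 had 8, 6, 2 and 1 reads, CICP13 had 9, 8, 2 and 2, CICP18 had 6, 9, 2 and 1, and CICP8 had 11, 6, 3 and 2. The CICP18 feature is annotated on the opposite strand of the shared sequence from the others. With CICP18 reverse complemented, these 4 copies were 91.6% to 97.2% identical to each other. Of the runs of 18 bases in these copies, 85.2% to 99.3% occurred in other genes. They are thus not 4 independent loci, and reads could be placed at any of the copies.

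A stretch of 94 bases, shown because it is the longest that the 4 member copies share and so cannot place a read at one of them, occurred in 12 of the 19 copies with a read. In CICP13 it lies at chr1:222469179-222469272 on the plus strand (GRCh38, from GENCODE 29 transcripts). Capitals mark the shared bases.
CICP shared run: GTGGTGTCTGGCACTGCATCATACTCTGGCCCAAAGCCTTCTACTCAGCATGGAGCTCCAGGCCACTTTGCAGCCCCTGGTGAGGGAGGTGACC
The 15 features on CICP exons with a read that were not members had 71 and 43 reads in the controls, against 39 and 27 under p53 shRNA in all. In CPM these were 105.0 and 42.6 against 13.9 and 11.6, so both controls lay above both p53 shRNA libraries. In CPM by library totals they were 64.6 and 45.8 against 14.9 and 13.9, in the same order. In CPM, 12 of these 15 had both controls above both p53 shRNA libraries and none had the reverse, against 17.3% and 23.6% of the 7701 features, which have more reads than some of the copies. The other 2 CICP features with a read, outside exons of the same strand, did not follow them: one within CICP18 had 0, 0, 4 and 1 reads and one opposite CICP19 had 3, 1, 1 and 4. With these, the 17 features that were not members had 109.0 and 43.6 CPM against 15.7 and 13.7. All features with a read that overlapped CICP18, apart from the member, had 1, 0, 6 and 1. Control replicate 1 was the highest library under both scalings. Because copies share sequence, reads of one transcript could be spread over several of them, and the copies do not count as replicates.

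**Figure D5:**
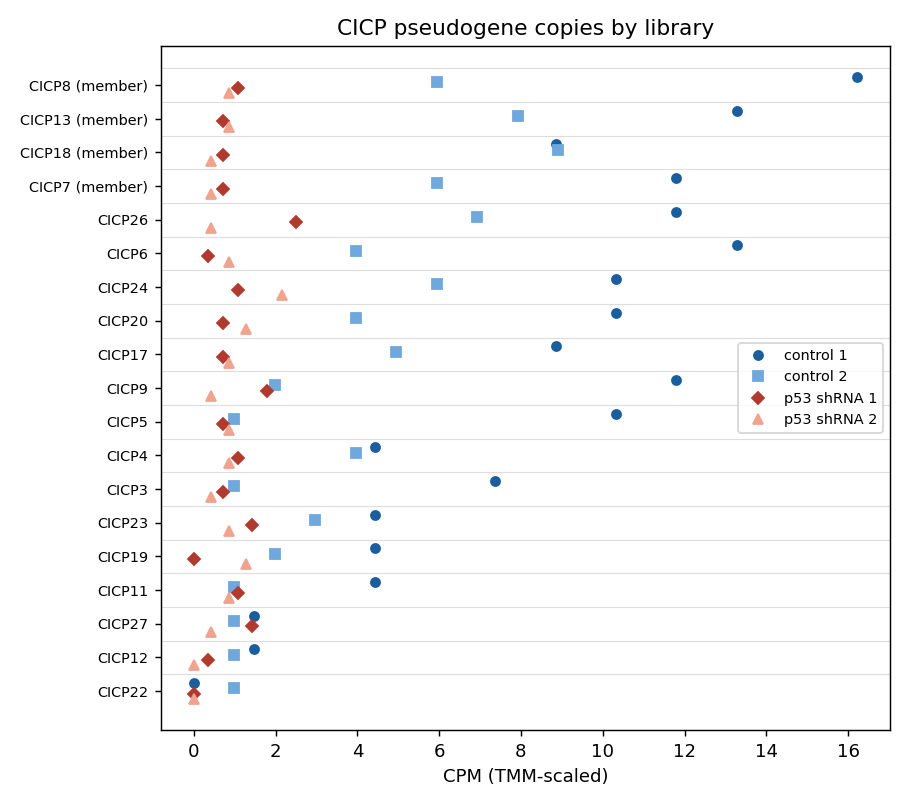
CPM with TMM scaling (x axis) of the 19 CICP pseudogene features with a read (rows), in control replicates 1 and 2 (blue) and p53 shRNA replicates 1 and 2 (red), with the 4 members on top. The 15 copies below them sum to 105.0 and 42.6 CPM in the controls, against 13.9 and 11.6 under p53 shRNA.

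LRRC37A12P and LRRC37A4P, pseudogenes of the LRRC37A family of leucine-rich repeat genes, were also members, with 6, 9, 0 and 3 reads and 6, 6, 1 and 3. The 14 lncRNA features placed in genes of that family that had a read and were not members had 49 and 21 reads in the controls, against 61 and 51 under p53 shRNA. In CPM these were 72.3 and 20.8 against 21.8 and 21.9, and the groups overlapped. The 6 other features with a read that overlapped LRRC37A4P, wherever placed, had 5, 4, 24 and 28 reads. This family was likewise singled out after its values were seen.

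GENCODE transcripts gave sequence for 80% or more of the own bases of 39 members. For most of these, few runs were repeated in other transcripts. The median share of their runs of 18 bases that occurred in another gene was 3.9%, and 21 members were under 10%. The 7 members with a share over 50% were AC016590.1, the 4 CICP copies, the TRIM69 feature and HMGN2P40, a pseudogene of a nucleosome-binding protein. Of the TRIM69 runs, 51.3% occurred elsewhere, in 13399 other genes. A low share says only that the run was absent from annotated transcripts of genes that do not overlap the member, not from the genome.

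Members are rare among lncRNA features with a read, at 0.191% against 2.87% for the exchanged rule, so counts of 0 or 1 in lists of this size say little. Of lncRNA features that overlapped exons of 26 genes on a list of p53 targets, 25 had a read, none was a member and 3 were among those of the exchanged rule. Of features at 19 lncRNA genes tied to the p53 response, 60 had a read, with no member and 2 in the exchanged rule. Of features at 20 lncRNA genes described in colon cancer, 46 had a read, with no member and 1 in the exchanged rule. Of features at 19 genes of vesicle formation, 29 had a read, and none passed in either direction. Among 16 autophagy genes, 28 features had a read and 1 was a member, the ATG9B feature. The other lncRNA features in ATG9B had 1, 0, 7 and 2 reads.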

How the data were processed

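Small RNA of vesicles was measured in 4 libraries, 2 per group. The authors deposited raw counts of reads per RNAcentral feature and an annotation; 0 count columns belonged to other samples. The build GRCh38 and the tools Subread 1.6.3, BWA 0.7.17 and bcl2fastq 2.19 are named per the submitters' processing notes. Settings for assigning reads are not given in the sources used here. Features were placed against GENCODE 29 genes with bedtools 2.31.1, at 50% or more of their bases. CPM used TMM factors from edgeR 4.0.16 (R 4.3.3), and log2 values a prior count of 2. edgeR's quasi-likelihood test, with its filter on low counts and Benjamini-Hochberg adjustment, ran on all features and was tested on simulated data. Members named were the 12 with the most control reads, the 8 with no read under p53 shRNA, those in fixed gene lists or near another member, and the 2 with fewest own bases; a gene may meet several. Members and lists were chosen with earlier results of these data known. Alternatives were other scalings and limits, DESeq2 1.42.0, a replicate block and each library left out. Wilson 95% intervals cover counting error only and make no allowance for the choice of members by these counts. The floor of 3 counts covers counting error in the p53 shRNA libraries alone. Some items are not reported here.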

Additional observations from a re-analysis of the deposited data

How the results depend on the processing

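The number of features restricted to control, 86, was 130 with scaling by library totals, 18 with limits of 8 and 2, 146 with limits of 5 and 4, and 122 (without p53 shRNA replicate 2) to 270 (without control replicate 2) with a library left out. The number under exchanged groups, 1290, was 171 with scaling by library totals, 35 with TMM scaling, 443 with limits of 8 and 2, 2314 with limits of 5 and 4, and 1939 (without control replicate 1) to 4005 (without p53 shRNA replicate 2) with a library left out, where fewer libraries had to meet a limit. The other alternatives (no limit on the sum, any annotation type, collapsed loci, no small RNA genes) stayed within 1.5 times of both. edgeR's 0 features called lower became 36 in the DESeq2 Wald test and 91 with the replicate number as a block. Deviations of same-numbered libraries correlated at 0.395 over 2780 features, with only 2 pairs, and the cause was not tested. Calls stayed at 0 with other scalings, without the filter and with each library left out, where a lone library is assumed to vary like the other group. Of 126 values of the 21 members named, 30 moved by more than the replicate spread, and their direction was fixed by the rule. Counts of a few reads limit how well the size of each single difference is known.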

Other observations

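Outside the lncRNA type, 3 features met the same limits, all typed Y RNA, the small RNAs that bind the Ro protein. The feature at 73906316 to 73906427 on chromosome 14 had 7, 6, 0 and 1 reads in control replicates 1 and 2 and p53 shRNA replicates 1 and 2. The feature at 77442109 to 77442213 on chromosome 17 had 6, 11, 0 and 0, and the one at 165122713 to 165122823 on chromosome 3 had 7, 7, 1 and 0. With the groups exchanged, 2 Y RNA features passed. Of 696 Y RNA features 328 had a read. The similarity of their sequences was not tested, so the source of the reads at each single locus is uncertain.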
